A study of Homo sapiens with 6 samples.

Results

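The genes described here were the WNT ligands, their receptors, the secreted antagonists of the pathway, and a small set of proteins that relay or limit the signal. They were chosen by name, not by their values, although earlier results of these data were known. All symbols of the WNT, Frizzled (FZD), Dickkopf (*DKK1* to *DKK4*) and secreted Frizzled-related (*SFRP1* to *SFRP5*) families were taken, together with *LRP5*, *LRP6*, *AXIN2*, *LEF1*, *TCF7*, *TCF7L2*, *CTNNB1*, *RNF43* and *ZNRF3*, which gave 46 of the 61228 gene names in the deposited tables. By role these were 19 ligands, 10 Frizzled receptors, 2 co-receptors, 8 secreted antagonists, 2 ubiquitin ligases and 5 intracellular effectors.

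Polyadenylated RNA was sequenced from HBECs, an immortalised human bronchial epithelial cell line labelled as wild type. The cells received cockroach extract (CRE), an allergen mixture, for 24 h in 3 libraries. In the other 3 libraries they received CRE for 24 h with VAF347, an agonist of the aryl hydrocarbon receptor (AhR). The study's methods describe VAF347 as a pre-treatment, given 1 h before CRE. Every library therefore carried CRE, and the comparison shows what differed when the AhR agonist was present in allergen-treated cells. Cells without CRE, and cells given VAF347 alone, were not analysed here. The line is grown under serum as 1 cell type, without the neighbouring tissue of a lung.

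WNT proteins are lipid-modified, secreted ligands that bind a Frizzled receptor on the cell surface. When the ligand also engages LRP5 or LRP6, the complex that destroys β-catenin is blocked, and β-catenin enters the nucleus, where it works with TCF and LEF factors. Among the Dickkopf proteins DKK1 binds LRP5 and LRP6, secreted Frizzled-related proteins bind the ligands, and RNF43 and ZNRF3 remove Frizzleds from the membrane. In the airway the pathway is known for its part in lung development, in basal progenitor cells and in repair after injury.

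Total counts ranged from 8873160 to 10750283 per library. Of 9 epithelial markers, *EPCAM* was at 493 to 610 TPM (a level scaled for transcript length and library size), while *KRT14* and the basal cell factor *TP63* were at or below 2 and 1 counts. The keratins *KRT17* and *KRT19* fell by 0.27 and 0.38 on the log2 scale (adjusted p 0.0240 and 0.0265, edgeR quasi-likelihood), which is about as far as *LRP5* and *WNT10A* below. The other markers tested did not move one way and none had an adjusted p under 0.05. *KRT5*, *CDH1* and *KRT8* were at -0.37, -0.18 and -0.05, and *EPCAM* and *KRT18* at 0.03 and 0.11. The 9 markers summed to 3456 to 4306 TPM under CRE and 3473 to 3551 TPM under CRE + VAF347. The club cell markers *SCGB1A1* and *SCGB3A2* were at 0 in all 6 libraries. Of 5 fibroblast markers, *PDGFRA*, *DCN* and *LUM* were at 0, *COL1A1* was at 14.4 to 20.2 TPM with 342 to 434 counts, and *COL1A2* had 8 to 11 counts under CRE and 2 to 3 under CRE + VAF347; together they summed to 18.2 to 20.5 TPM and 14.5 to 18.0 TPM. Of 3 endothelial markers, *PECAM1* was at or below 3 counts in every library, while *CDH5* and *VWF* fell by 0.84 and 1.45 on the log2 scale (adjusted p 0.00119 and 0.0107, edgeR quasi-likelihood). Their summed level was 7.31 to 7.92 TPM under CRE and 3.95 to 4.67 TPM under CRE + VAF347, and the part of these marker differences in the results below was not tested. The AhR target *CYP1A1* was at 0.325 to 0.468 TPM under CRE and 27.0 to 32.0 TPM under CRE + VAF347. CRE replicate 3 stood apart on the second principal component (20.2% of the variance), and the tests were repeated without it. No label says that the replicates were separate cultures, so the p-values measure the spread between these libraries, which may be technical.

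The clearest difference among the WNT genes was at the level of a secreted antagonist. *DKK1* fell to about 1.91-fold lower in CRE + VAF347 than in CRE, the ligand *WNT10A* and the co-receptor *LRP5* fell by less, and the receptor *FZD7* rose. *WNT10A*, *LRP5* and *FZD7* were past the adjusted p in only 4, 6 and 5 of the 16 alternative fits given at the end. Of the 46 genes, 26 passed the filter on low counts and were tested, and the other 20 were not. With the edgeR quasi-likelihood test, 1 of the 26 (3.85%) had an adjusted p under 0.05 together with a log2 fold change beyond 0.5 in either direction, against 2.21% of all 15373 genes tested. At the adjusted p alone 4 of 26 (15.4%) were called, 3 lower and 1 higher, against 5.42% of all genes. The 2 groups of 3 libraries did not overlap, with CRE + VAF347 lower, for 9 of 26 (34.6%) against 14.8% of all genes, and with CRE + VAF347 higher for 5 of 26 (19.2%) against 12.5%. The median log2 fold change was -0.14 over the 26 genes and 0.01 over all genes tested, and the 26 are only those abundant enough to test. Transcripts of these 26 had a median GC content of 55.5%, against 49.7% over the 11080 genes compared by GC below. Fold changes fell with GC content, and its part in these shares was not tested. In RNA from whole cultures, fewer cells making a transcript cannot be told apart from less of it in each cell.

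**Figure D1:**
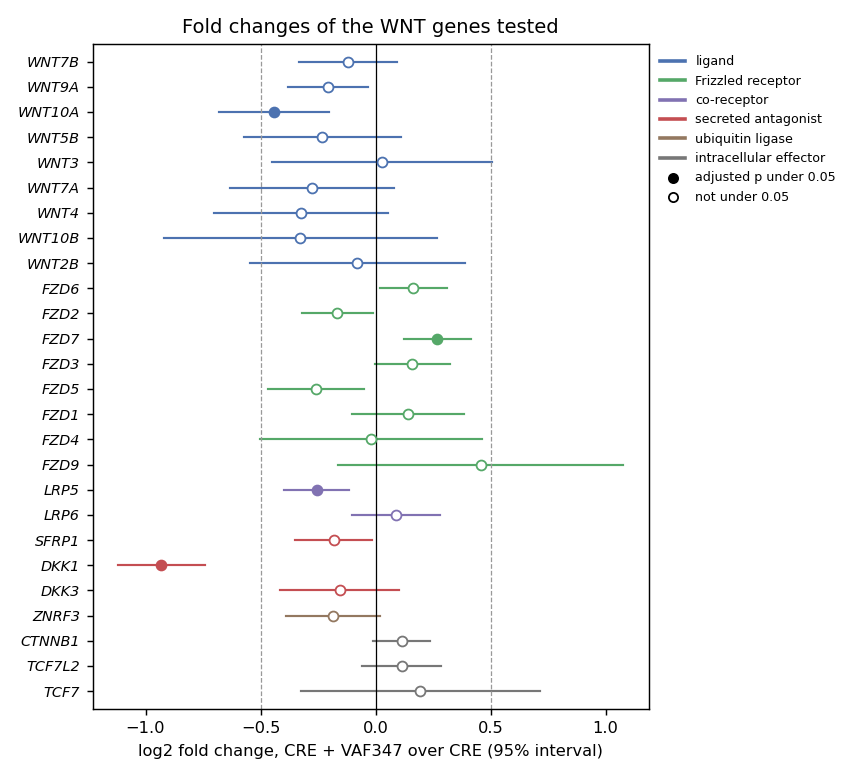
Log2 fold change of CRE + VAF347 over CRE for each of the 26 WNT genes tested, with its 95% interval, coloured by role; filled points have an adjusted p under 0.05 and dashed lines mark a log2 fold change of 0.5 either way. *DKK1* at -0.93 lies clear of all other genes, the next lowest being *WNT10A* at -0.44, and *FZD7* at 0.27 is the filled point to the right of 0.

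The stretch before the start of transcription is shown for the 3 members called lower at the adjusted p. Whether these 3 are controlled together was not tested. The sequences come from a table of RefSeq promoters (GRCh38.p14) that matched 31 of the 46 genes; *FZD7* was not among them. Each is the 250 bases before the start, on the plus strand. *DKK1* is at chr10:52314031-52314280, *LRP5* at chr11:68312341-68312590 and *WNT10A* at chr2:218880602-218880851. Capitals mark CTTTGAA, a form of the sequence that TCF and LEF factors recognise.
DKK1: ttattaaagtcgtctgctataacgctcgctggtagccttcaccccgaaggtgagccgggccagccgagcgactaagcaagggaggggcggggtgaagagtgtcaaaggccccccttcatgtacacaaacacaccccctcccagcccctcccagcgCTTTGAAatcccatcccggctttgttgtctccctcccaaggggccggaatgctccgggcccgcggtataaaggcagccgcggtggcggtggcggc
LRP5: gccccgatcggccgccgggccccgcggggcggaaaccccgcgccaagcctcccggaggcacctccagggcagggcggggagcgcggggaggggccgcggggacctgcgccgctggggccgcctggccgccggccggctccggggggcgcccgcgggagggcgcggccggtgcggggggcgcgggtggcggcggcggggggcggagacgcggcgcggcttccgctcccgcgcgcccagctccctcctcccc
WNT10A: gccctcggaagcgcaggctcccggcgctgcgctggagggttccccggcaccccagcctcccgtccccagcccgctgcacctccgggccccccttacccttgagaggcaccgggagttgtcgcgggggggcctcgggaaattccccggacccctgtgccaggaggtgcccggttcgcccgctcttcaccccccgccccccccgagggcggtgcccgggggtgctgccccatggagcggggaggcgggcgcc
Searching both strands, CTTTGAA was found in 1 of the 31 promoters, that of *DKK1*, and in 3.8% of 35116 RefSeq promoters of the same length. The related CTTTGAT was in none of the 31 and in 2.26% of all. GCGTG, the core of the sequence bound by AhR with its partner ARNT, was in 9 of the 31 and in 32.2% of all, and in none of the 3 printed. These are matches of letters in this window only.

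*DKK1* encodes a secreted inhibitor that takes LRP5 and LRP6 out of the receptor complex. It is at chr10:52314281-52318042 on the plus strand of GRCh38. Its counts were 479, 433 and 515 under CRE and 229, 237 and 230 under CRE + VAF347, so every CRE library was well above every CRE + VAF347 library. In CPM (counts scaled to library size) the mean was 46.7 ± 3.76 (SD, n = 3) under CRE and 24.5 ± 1.43 (SD, n = 3) under CRE + VAF347. The log2 fold change was -0.93 (SE 0.09, 95% interval -1.12 to -0.74), a fall of 47.5%, with an adjusted p of 0.000179 by the edgeR quasi-likelihood test. In TPM it was 67.6 ± 9.67 and 33.0 ± 1.76. The antisense gene *PRKG1-AS1* lies over *DKK1* on the other strand, with 9, 15 and 12 counts under CRE and 6, 3 and 4 under CRE + VAF347. Whether the counting used strand is not given in the sources used here, so reads of the pair cannot be told apart with certainty, although *PRKG1-AS1* was listed at no more than 15 counts.

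*SFRP1*, which binds WNT ligands directly, was the most abundant antagonist, at 121.8 ± 17.3 TPM under CRE and 106.8 ± 4.79 TPM under CRE + VAF347. Its counts were 3308, 2884 and 3543 under CRE and 2435, 2636 and 2933 under CRE + VAF347. Its groups overlapped in CPM, and its log2 fold change of -0.18 (SE 0.08, interval -0.35 to -0.02) was not past the test (adjusted p 0.200, edgeR quasi-likelihood). *DKK3*, a divergent family member, was at 7.12 to 11.2 TPM, with a log2 fold change of -0.16 and an adjusted p of 0.496 by the same test.

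The mix of antagonist transcripts is drawn from the same values, so its shift is not a result apart from the fall of *DKK1*. *DKK1* made up 33.9% ± 0.169 of the summed antagonist TPM under CRE and 22.3% ± 1.53 under CRE + VAF347 (SD, n = 3), and *SFRP1* 61.1% ± 0.682 and 72.1% ± 2.04. The ratio of *DKK1* to *SFRP1* counts within a library, a pair chosen after the values were seen, was 0.145, 0.150 and 0.145 under CRE and 0.0940, 0.0899 and 0.0784 under CRE + VAF347. All 3 ratios under CRE were above all 3 under CRE + VAF347. The rest of the antagonists were scarce: *SFRP5* was at 5 to 8 counts, *DKK2* at 1 count in a single library, and *DKK4*, *SFRP2* and *SFRP4* at 0.

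**Figure D2:**
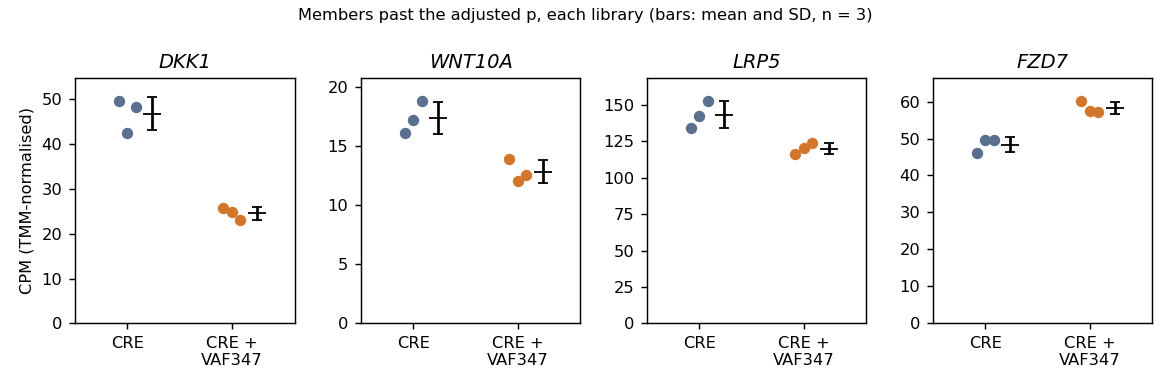
CPM in each library for the 4 WNT genes with an adjusted p under 0.05 (points; black bars, mean and SD, n = 3), with each axis starting at 0. For *DKK1*, *WNT10A* and *LRP5* all CRE + VAF347 points lie below all CRE points, and for *FZD7* the CRE + VAF347 points, 57.2 to 60.2, lie above the CRE points, 46.0 to 49.5.

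The co-receptors LRP5 and LRP6 are single-pass proteins that carry the signal inward once a WNT has joined them to a Frizzled. *LRP5* (chr11:68312591-68449275, plus strand) was the more abundant, at 28.1 ± 4.12 TPM under CRE and 24.5 ± 1.08 TPM under CRE + VAF347. Its counts were 1298, 1454 and 1635 under CRE and 1035, 1144 and 1238 under CRE + VAF347. In CPM the mean was 143.3 ± 9.23 and 120.0 ± 3.62 (SD, n = 3), and the groups did not overlap, whereas in TPM they did, with 25.0 as the lowest CRE library and 25.7 as the highest CRE + VAF347 library. *LRP5* fell by 0.26 on the log2 scale (SE 0.06, 95% interval -0.40 to -0.11, adjusted p 0.0425, edgeR quasi-likelihood). The count behind each TPM, an effective length taken relative to the gene's mean and the library's median, was 1.03 to 1.04 under CRE and 0.959 to 0.969 under CRE + VAF347. With an offset for that effective length, added after the data were seen, *LRP5* was at -0.16 with an adjusted p of 0.370.

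*LRP6* had 387, 431 and 415 counts under CRE and 427, 400 and 389 under CRE + VAF347, with overlapping groups and a log2 fold change of 0.09 (interval -0.10 to 0.28, adjusted p 0.612). Within a library, *LRP5* counts were 3.35, 3.37 and 3.94 times those of *LRP6* under CRE and 2.42, 2.86 and 3.18 times under CRE + VAF347, again a pair chosen after the values were seen. Fold changes fell with the GC content of the transcripts across 11080 genes (Spearman's rho -0.35, across genes, which are not independent replicates). The transcripts of *LRP5* were 62.3% GC and those of *WNT10A* 62.1%, both above the median of 49.7%. With an offset for GC, an alternative added after the data were seen, *LRP5* was at -0.18 with an adjusted p of 0.160 and *WNT10A* at -0.37 with an adjusted p of 0.0965, so neither was called. *DKK1* transcripts were 44.9% GC.

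Frizzleds are the receptors that bind WNT directly, and 8 of the 10 were abundant enough to test. *FZD7*, at chr2:202033855-202038441 on the plus strand, was the one member called higher at the adjusted p with all libraries in the fit. It had 444, 505 and 530 counts under CRE and 536, 546 and 573 under CRE + VAF347. In CPM the 3 CRE libraries were at 46.0, 49.5 and 49.5 and the 3 CRE + VAF347 libraries at 60.2, 57.4 and 57.2, with no overlap. The log2 fold change was 0.27 (SE 0.07, 95% interval 0.12 to 0.41, adjusted p 0.0404, edgeR quasi-likelihood), and the level was 13.7 ± 2.16 TPM and 16.0 ± 0.421 TPM. In TPM the groups overlapped, since CRE replicate 3 at 16.1 was above CRE + VAF347 replicates 2 and 3 at 15.6 and 15.9. CRE replicate 2, with the same CPM as CRE replicate 3, was at 13.0 TPM.

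*FZD6* supplied most Frizzled transcripts in every library. It was at 85.5 ± 12.4 TPM under CRE and 90.6 ± 2.41 TPM under CRE + VAF347, with 1082, 1269 and 1383 counts and 1191, 1341 and 1354 counts. This was 59.5% ± 3.43 and 61.5% ± 0.758 of the summed Frizzled TPM. In CPM its groups did not overlap, with CRE + VAF347 higher (log2 fold change 0.16, SE 0.07, interval 0.02 to 0.31), and the adjusted p was 0.187. Without CRE replicate 3 it was called, at 0.21 with an adjusted p of 0.0363 by the edgeR test, while without CRE replicate 1 it was at 0.11 (adjusted p 0.392) and with the GC offset at 0.08 (adjusted p 0.587). The next in order were *FZD2* at 17.1 to 23.6 TPM and *FZD7* at 11.9 to 16.4 TPM, whose ranges did not meet, then *FZD3*, whose range overlapped that of *FZD7*.

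*FZD2* had 543, 565 and 611 counts under CRE and 477, 475 and 471 under CRE + VAF347, with no overlap in CPM and a log2 fold change of -0.17 (interval -0.32 to -0.01, adjusted p 0.203). The ratio of *FZD7* to *FZD2* counts, chosen after the values were seen, was 0.818, 0.894 and 0.867 under CRE and 1.12, 1.15 and 1.22 under CRE + VAF347. *FZD7* counts were thus below those of *FZD2* in every CRE library and above them in every CRE + VAF347 library. Counts are not scaled for transcript length, and in TPM *FZD2* stayed above *FZD7* in every library (at least 17.1 against at most 16.4). *FZD5* had 234, 235 and 263 counts under CRE and 172, 176 and 222 under CRE + VAF347 (log2 fold change -0.26, interval -0.47 to -0.05, adjusted p 0.148). Its groups did not overlap in CPM either.

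*FZD3* showed how far the 2 deposited scales can part. Its counts were 435, 423 and 469 under CRE and 426, 495 and 459 under CRE + VAF347, but its TPM was 17.6, 8.91 and 11.3 under CRE and 10.1, 17.3 and 9.68 under CRE + VAF347. The count behind each TPM differed 1.93-fold between libraries, against at most 1.13-fold for the 4 genes that were called. The log2 fold change was 0.16 from counts (adjusted p 0.249) and -0.02 from TPM. Of the rest, *FZD1* was at 2.93 to 4.25 TPM, *FZD4* at 0.924 to 1.56 TPM and *FZD9* at 0.516 to 1.18 TPM, with overlapping groups and adjusted p of 0.509, 0.972 and 0.392. *FZD8* reached 23 counts and *FZD10* 4 counts, and neither was tested.

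**Figure D3:**
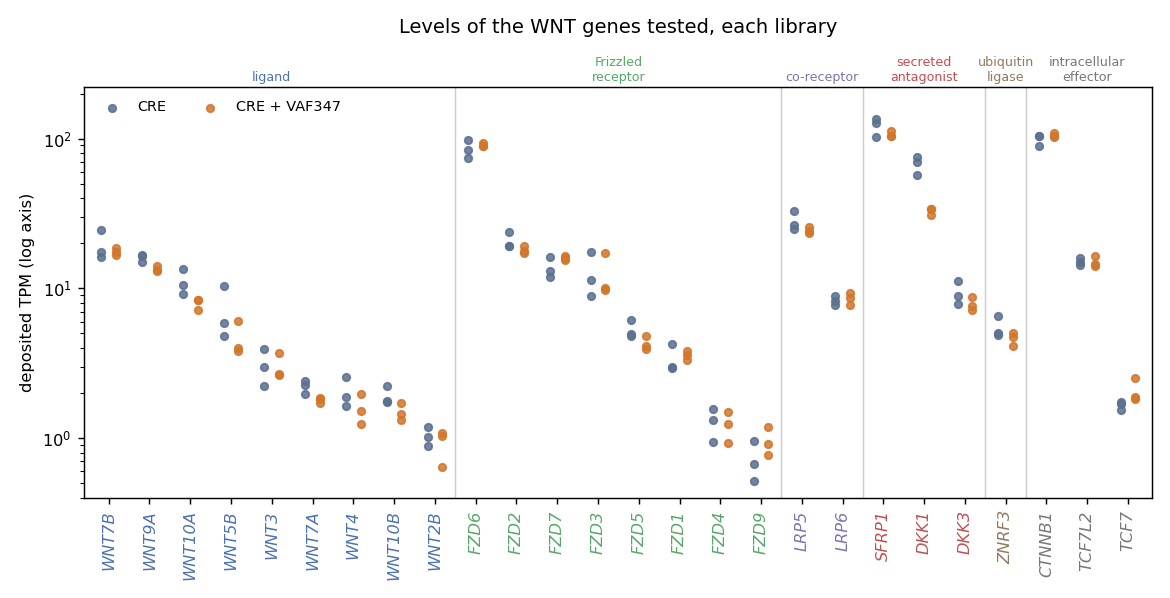
Deposited TPM on a log axis in each library for the 26 WNT genes tested, grouped by role and ordered by mean level within a role, CRE on the left and CRE + VAF347 on the right of each gene. *SFRP1*, *CTNNB1* and *FZD6* were the most abundant, *DKK1* is the gene whose 2 groups of points stand farthest apart, and the points of *FZD3* scatter between 8.91 and 17.6 in both groups.

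Among the 19 ligands, 9 were tested. *WNT7B*, known from lung development as a ligand made by airway epithelium, and *WNT9A* had the highest levels, at 16.2 to 24.6 TPM and 13.1 to 16.8 TPM, ranges that overlapped. *WNT10A* followed at 7.20 to 13.5 TPM and *WNT5B* at 3.82 to 10.4 TPM. *WNT3*, *WNT7A*, *WNT4*, *WNT10B* and *WNT2B* were at 0.644 to 3.95 TPM. Of the 9, 8 had a log2 fold change below 0, against 47.9% of all genes tested. For 4 of them, *WNT9A*, *WNT10A*, *WNT7A* and *WNT4*, all CRE + VAF347 libraries were below all CRE libraries in CPM, against 14.8% of all genes. Transcripts of these 9 ligands ran from 49.0% GC for *WNT2B* to 65.1% for *WNT7B*, against a median of 49.7% over 11080 genes. The part of GC content in these shares was not tested.

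*WNT10A*, a ligand known for its roles in skin appendages and teeth, was the one ligand called lower at the adjusted p with all libraries in the fit. At chr2:218880852-218899581 on the plus strand, it had 156, 176 and 202 counts under CRE and 124, 115 and 126 under CRE + VAF347. In CPM the mean was 17.4 ± 1.37 and 12.9 ± 0.956 (SD, n = 3). The log2 fold change was -0.44 (SE 0.11, 95% interval -0.68 to -0.20, adjusted p 0.0384, edgeR quasi-likelihood). In TPM it was 11.1 ± 2.22 and 7.97 ± 0.669, and there the 2 groups of libraries also did not overlap, with 9.15 as the lowest CRE library and 8.38 as the highest CRE + VAF347 library.

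*WNT9A* had 432, 491 and 436 counts under CRE and 336, 364 and 398 under CRE + VAF347, with a log2 fold change of -0.21 (interval -0.38 to -0.03) and an adjusted p of 0.165. Without CRE replicate 3 it was called, at -0.27 with an adjusted p of 0.0328 by the edgeR test. *WNT7B* had 575, 566 and 784 counts under CRE and 507, 533 and 607 under CRE + VAF347, and its groups overlapped (log2 fold change -0.12, SE 0.10, interval -0.33 to 0.09, adjusted p 0.527). The high CRE value of *WNT7B* was that of replicate 3. *WNT4* was at -0.32 (adjusted p 0.319) and *WNT7A* at -0.28 (adjusted p 0.364). *WNT3*, the 1 ligand with a value above 0, was at 0.03 (interval -0.45 to 0.51, adjusted p 0.963).

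Summed over all ligands, the level was 58.7, 58.3 and 77.8 TPM under CRE and 54.0, 50.9 and 55.5 TPM under CRE + VAF347. The lowest CRE library was above the highest CRE + VAF347 library, and CRE replicate 3 was the highest by a wide margin. Summed Frizzled TPM overlapped between groups, at 132.4 to 162.7 and 144.3 to 153.8. Both sums were highest in CRE replicate 3, a library whose TPM could stand high against its counts. There *EPCAM* had its highest TPM (610) at its lowest CPM (330). The part of this in the sums was not tested. The 10 untested ligands were near or at the limit of detection. *WNT2*, *WNT8A* and *WNT9B* were at 0 in every library, which with a floor of 3 counts allows up to 0.279 to 0.338 CPM depending on the library. *WNT5A*, the ligand best known for β-catenin-independent signalling, had at most 2 counts and *WNT1* at most 1. *WNT3A*, *WNT8B*, *WNT11*, *WNT6* and *WNT16* reached 8, 8, 6, 6 and 5 counts.

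Of the ubiquitin ligases, *ZNRF3* had 240, 244 and 281 counts under CRE and 176, 215 and 236 under CRE + VAF347. The groups did not overlap in CPM, at 23.9 to 26.3 and 19.8 to 23.5, and the log2 fold change was -0.19 (SE 0.09, interval -0.39 to 0.02, adjusted p 0.288). *RNF43*, its close relative and a common target of β-catenin, was at or below 5 counts in every library.

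*CTNNB1*, which encodes β-catenin, was among the most abundant members at 98.7 ± 8.04 TPM under CRE and 104.6 ± 3.23 TPM under CRE + VAF347. In CPM it was 155, 156 and 165 under CRE and 173, 170 and 173 under CRE + VAF347. The groups did not overlap, and the log2 fold change of 0.11 (SE 0.06, interval -0.01 to 0.24, adjusted p 0.286) was not past the test. *TCF7L2* was the main TCF/LEF factor, at 15.0 ± 0.782 and 15.1 ± 1.24 TPM, with a log2 fold change of 0.11 (adjusted p 0.443). *TCF7* was at 1.53 to 2.52 TPM (log2 fold change 0.19, interval -0.32 to 0.71, adjusted p 0.685). *LEF1* had 1 count in 1 library. *AXIN2*, the target most often read as a report of β-catenin activity, had 0, 1 and 2 counts under CRE and 0, 5 and 0 under CRE + VAF347, too few to compare.

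A wider list of 60 pathway genes outside the members held 43 that could be tested. Past both thresholds were 3 of these (6.98%), all lower, against 2.21% of all genes, and past the adjusted p alone were 6 (14.0%), 5 lower and 1 higher, against 5.42%. Both counts include *MYC*, which the paper already reported as reduced by VAF347 in these cells, so the shares are not independent of known results. In several of the alternatives given at the end, *MYC* alone stayed past both thresholds. All 9 other receptors had log2 fold changes below 0, from -1.68 to -0.03, against 47.9% of all genes, although *LGR6* was above 0 with the length offset or from TPM and *KREMEN1*, *KREMEN2* and *ROR1* lay between -0.06 and -0.03. The receptor called, 1 of the 9, was *LGR5*, a receptor for R-spondins and itself a β-catenin target, with 20, 20 and 16 counts under CRE and 5, 5 and 6 under CRE + VAF347. It fell by 1.68 on the log2 scale (SE 0.33, interval -2.41 to -0.96, adjusted p 0.0132, edgeR quasi-likelihood). At such counts it is a scarce transcript, at 0.996 ± 0.231 and 0.379 ± 0.0946 TPM. Its relative *LGR6* had 16, 13 and 11 counts and 3, 7 and 6 (adjusted p 0.102), and the abundant *LGR4* had 359, 383 and 372 and 333, 307 and 320 (adjusted p 0.501).

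Among the further inhibitors, *TRABD2A*, a membrane protease that inactivates WNT ligands, had 157, 173 and 238 counts under CRE and 104, 106 and 146 under CRE + VAF347. It fell by 0.57 on the log2 scale (SE 0.15, interval -0.89 to -0.24, adjusted p 0.0489, edgeR quasi-likelihood). *APCDD1*, an inhibitor at the membrane, had 20, 19 and 14 counts and 5, 10 and 4 (log2 fold change -1.36, adjusted p 0.0687), and was called without CRE replicate 3 (-1.54, adjusted p 0.0378, edgeR quasi-likelihood). *WIF1*, *SOST*, *SOSTDC1* and *FRZB* were at or below 5 counts. R-spondins amplify WNT signals, and *RSPO4* was the one with a testable level, at 62 to 83 counts (adjusted p 0.654).

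Nuclear and cytoplasmic parts of the pathway mostly did not pass. The co-repressors *TLE1* and *TLE2*, which silence TCF targets, fell by 0.26 and 0.44 on the log2 scale (adjusted p 0.0495 and 0.0308, edgeR quasi-likelihood). With the GC offset neither was called (adjusted p 0.0797 and 0.0839), nor was *TRABD2A* (0.0661), and with the length offset they were at -0.15 and -0.17. Of 14 cytoplasmic genes tested none was called, and the nearest was *DVL1*, which relays Frizzled signals, at -0.25 with an adjusted p of 0.0584; 2 of the 14 had an unadjusted p under 0.05 by the same test, against 20.8% of all genes. The classical β-catenin targets did not move one way. *LGR5* (-1.68, called) and *APCDD1* (-1.36, not called), both given above, are also listed among them, as is *NOTUM* at or below 3 counts. *MYC*, which many other pathways also control, had 594, 605 and 706 counts under CRE and 341, 291 and 290 under CRE + VAF347 and fell by 0.94 (adjusted p 0.000432, edgeR quasi-likelihood). *CCND1*, the cyclin of early cell cycle entry, had 962, 973 and 1121 counts and 1041, 1215 and 1308 and rose by 0.32 (adjusted p 0.0164, same test). *CD44* and *TNFRSF19* were at 0.03 and 0.09 (adjusted p 0.905 and 0.832), and *SP5*, *NKD1*, *NKD2* and *ASCL2* were at or below 14 counts.

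**Figure D4:**
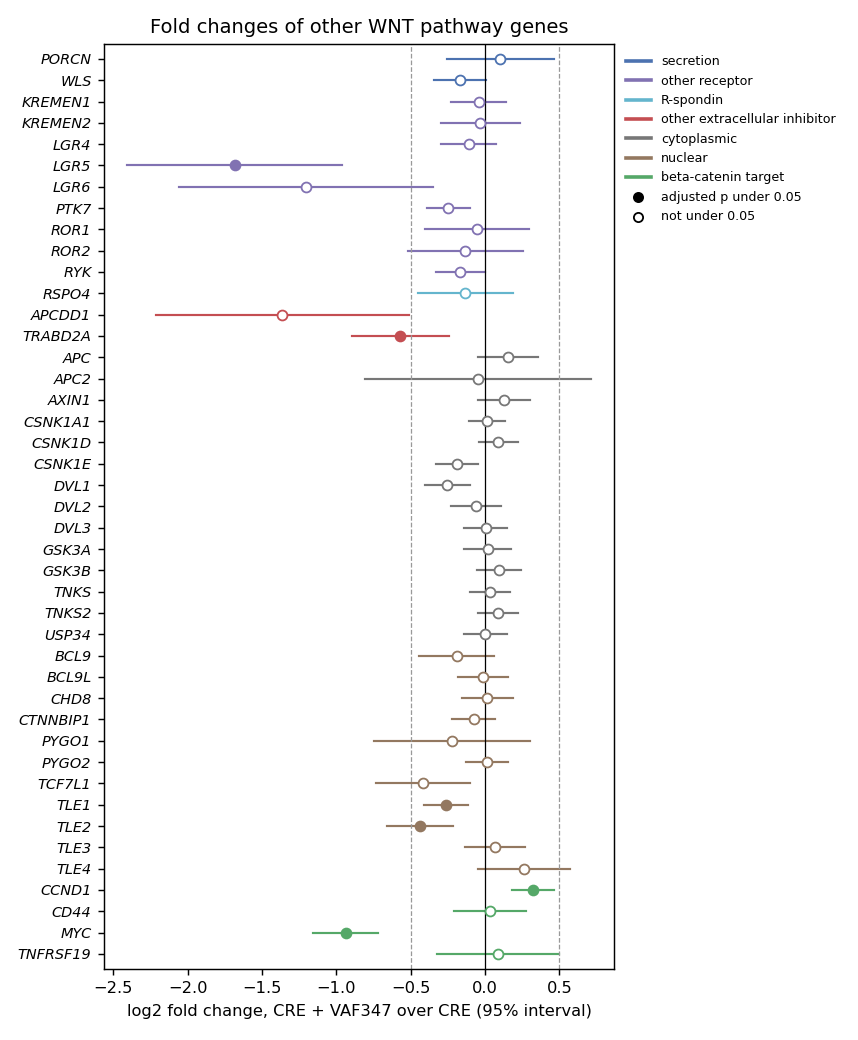
Log2 fold change of CRE + VAF347 over CRE with its 95% interval for the 43 further WNT pathway genes tested, coloured by role; filled points have an adjusted p under 0.05 and dashed lines mark a log2 fold change of 0.5 either way. *LGR5* at -1.68 and *MYC* at -0.94 are the lowest filled points, and *CCND1* at 0.32 is the single filled point to the right of 0.

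The 4 member calls did not rest on the libraries equally. *DKK1* was called whichever library was left out, at -0.99 to -0.89 with adjusted p of 9.35e-06 to 0.0031. *WNT10A* was called only when CRE replicate 1 was left out (adjusted p 0.0481) and lay between 0.0563 and 0.149 without any other library. *LRP5* was called without CRE replicate 1 or CRE replicate 3 (adjusted p 0.0382 and 0.0259) and lay between 0.0995 and 0.145 otherwise, and *FZD7* was called only without CRE replicate 3 (adjusted p 0.0166) and lay between 0.0816 and 0.164 otherwise. Their directions did not change in any of these fits. Without CRE replicate 3, *PTK7* (-0.19, adjusted p 0.0241) and *APC* (0.26, adjusted p 0.0329) were called as well, and *PTK7* also without CRE replicate 2 (-0.30, adjusted p 0.0423). Of the further pathway genes, *MYC* was called whichever library was left out. *LGR5* was called without CRE replicate 1 or 3, and lay between 0.0524 and 0.0724 without CRE replicate 2 or any CRE + VAF347 replicate. *TRABD2A* was called only without CRE replicate 1 and *TLE1* only without CRE replicate 3, with adjusted p of up to 0.181 and 0.169 otherwise. *TLE2* and *CCND1* both lost their calls without CRE replicate 2, CRE + VAF347 replicate 2 or CRE + VAF347 replicate 3 (adjusted p up to 0.133 and 0.0964).

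**Figure D5:**
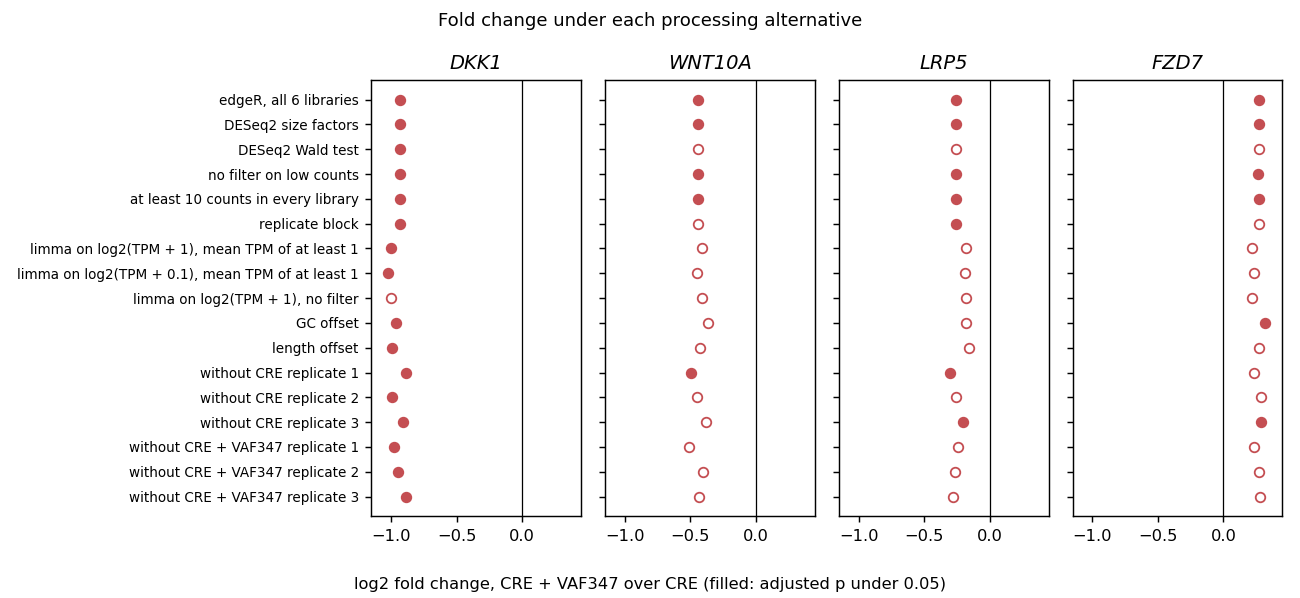
Log2 fold change of CRE + VAF347 over CRE for *DKK1*, *WNT10A*, *LRP5* and *FZD7* (columns) under each processing alternative (lines of the plot); filled points have an adjusted p under 0.05. *DKK1* stayed between -1.02 and -0.89 and was filled in all but the unfiltered TPM fit, while the other 3 kept their side of 0 and were open in 10 or more of the 17 fits.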

How the data were processed

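HBECs were treated for 24 h with CRE or CRE + VAF347 (3 libraries each). Per the study's methods, libraries were poly(A)-enriched and sequenced as paired-end reads. The authors deposited estimated counts per gene, not normalised (14.5% of values were not whole), and TPM, corrected by them for length and depth; the submitters' processing notes name Salmon and hg38. A deposited table of the authors' own comparison (fold changes and p-values) was not used. Groups came from the sample titles.

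Counts were rounded, genes with low counts were removed with filterByExpr, and CRE + VAF347 was compared with CRE in edgeR 4.0.16 (TMM, quasi-likelihood test, Benjamini-Hochberg adjustment over 15373 genes) in R 4.3.3. A gene was called at an adjusted p under 0.05, alone or together with a log2 fold change beyond 0.5 in either direction. TPM served for comparing levels between genes and, with limma 3.58.1 on log2(TPM + 1), as an alternative, as did DESeq2 1.42.0. The tests across genes were tested on simulated data. All 61228 names matched GENCODE release 44, which gave positions. Replicates of a group differed beyond sampling noise. Same-numbered libraries did not deviate together (correlations 0.0706, 0.104 and 0.0462), so they were not paired. An exact permutation test of 3 against 3 cannot go below 0.1, so none was used. One count was worth 0.0930 to 0.113 CPM, which limits scarce genes; intervals cover the spread between libraries, and floors cover counting error only.

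The members and lists were chosen with earlier results of these data known. By rule, members past the adjusted p and the most abundant of each role were given in full, other members in short, and of the wider list those past the adjusted p; its other named genes, and the gene pairs set in ratio, were chosen after their values were seen.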

Additional observations from a re-analysis of the deposited data

How the results depend on the processing

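*DKK1* was past the adjusted p in 15 of 16 alternatives, the exception being limma on unfiltered log2(TPM + 1) (adjusted p 0.0581), where no member was past both thresholds (0 against 1). *WNT10A* was called in 4 of 16, *LRP5* in 6 and *FZD7* in 5, with no change of direction. The count of members past the adjusted p was 4 in the edgeR fit, 1 with the DESeq2 Wald test and 2 with the replicate block. It was 1, 1 and 0 with limma on TPM (pseudocount 1, pseudocount 0.1, no filter), 2 with a GC offset and 1 with a length offset. With each library left out in turn it was 1 to 5. The cause of these differences was not tested, and the fits with a library left out also had fewer samples. Under the replicate block *WNT10A* (adjusted p 0.0656), *FZD7* (0.0706), *TLE1* (0.0627) and *TLE2* (0.0564) lost their calls and no other named gene did; same-numbered libraries share only a number. Both offsets were chosen after seeing the data. The 3 further pathway genes past both thresholds became 1 with the Wald test, 1 under each limma fit, 1 with the length offset, 2 with the GC offset (*TRABD2A* lost), 2 with at least 10 counts in every library (*LGR5* not tested), 4 without the filter, and 1 to 3 with a library left out; DESeq2 gave *LGR5* no adjusted p. The 340 genes past both thresholds were 598 without the filter, 84, 84 and 32 under limma, 222 with the length offset and 201 to 380 with a library left out. Direction turned, with no call on either side, for *FZD3* under limma (-0.023, -0.024 and -0.023) *WNT3* under limma (-0.0060, -0.0032 and -0.0060), *RSPO4* under limma (0.0073, 0.0039 and 0.0073) and the length offset (0.048), *CD44* under limma (-0.093, -0.095 and -0.093) and the length offset (-0.067), and *LGR6* under unfiltered limma (0.22) and the length offset (0.49). Leaving out a library took *WNT3* from -0.10 to 0.30, *LRP6* from -0.0073 to 0.15, *FZD4* from -0.21 to 0.14, *TCF7* from -0.10 to 0.35, *WNT7B* from -0.20 to 0.0094, *CD44* from -0.071 to 0.19, *TNFRSF19* from -0.0054 to 0.17 and *WNT2B* from -0.25 to 0.051. Depth limits the 20 untested members, none of which had more than 23 counts in a library.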
